A study of Sus scrofa with 4 samples.

Results

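Dividing collagen-rich cells of the young pig testis were taken from 2 single-cell libraries, 1 from testes of pigs aged 7 days and 1 from pigs aged 30 days. Together they were 519 barcodes, 261 at 7 days and 258 at 30 days, among 31132 barcodes that passed the cell filter at those ages and 55798 at all 4 ages. A barcode (the tag of 1 droplet, taken as 1 cell) was kept with at least 1000 unique molecular identifiers (UMIs, each a counted RNA molecule), 500 or more detected genes and no more than 15% mitochondrial UMIs (13 genes). It was collagen-rich when DCN, LUM, COL1A1 and COL3A1 together made up at least 0.3% of its UMIs, the Sertoli cell genes AMH, INHA and CLDN11 under 0.1%, and the Leydig cell genes INSL3 and CYP17A1 under 1%. It was called dividing when at least 2 of 3 genes of mitosis, TOP2A, UBE2C and CENPF, were detected. The cells were chosen by these counts, so the levels of these genes in them are a description.

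Fibroblast-like cells of the testis lie in different places. Peritubular cells form a sheath around the seminiferous tubules, lay down part of the tubule's basement membrane and later become contractile, while stromal cells fill the space between the tubules and include precursors of Leydig cells. Both multiply while the testis grows, and hedgehog signals from Sertoli cells are known to act on them through the receptor PTCH1. Passage through the cell cycle follows a fixed order, with replication genes used in S phase and kinesins, cyclin B and the kinetochore used at mitosis.

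The series covers dissociated whole testis at 7, 30, 60 and 90 days with 10x Genomics 3′ chemistry, in 1 library per age. No treatment, genotype or breed is named, the number of pigs behind each library is not given in the sources used here, and age, animals and library cannot be told apart. With 1 library per age no test was possible. Every interval below is an exact 95% interval for counting error alone, and "past 2-fold" is a size, not a test.

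The 7-day and 30-day libraries held 96133720 and 77992845 counts, and the dividing cells 1646167 and 1097945 of them. Dividing cells were deeper than the others. Their median was 5790 UMIs at 7 days and 3809 at 30 days, against 3208.5 and 2115 in the 2540 and 5357 collagen-rich cells with none of the 3 mitosis genes, called non-dividing below. The 459 and 363 collagen-rich cells with exactly 1 of the 3 were in neither group. A total of 92 barcode sequences occurred in both libraries, 77 of them passed the filter in both, and 1 was a dividing cell in both.

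The dividing cells carried the markers that named them. TOP2A, an enzyme that untangles DNA, was detected in 248 of 261 of them at 7 days and in 96.9% at 30 days. CENPF, a kinetochore protein, was detected in 89.3% and 93.0%, and UBE2C, which tags cyclins for destruction, in 67.4% and 65.5%. All 3 were present in 135 cells at 7 days and 143 at 30 days, and exactly 2 in 126 and 115. DCN and COL1A1, which encode a matrix proteoglycan and a fibrillar collagen chain, were detected in 99.6% and 100% of the dividing cells at 7 days and in 99.6% of them at 30 days for either gene. In cells with at least 0.3% of UMIs from the 3 Sertoli cell genes, COL1A1 was detected in 14.8% at 7 days (7058 cells, median 5670.5 UMIs) and DCN in 17.3% at 30 days (6096 cells, median 3847 UMIs), taken here as the background level. LUM is a poorer marker here, since it was detected in 92.2% of those Sertoli-rule cells at 600 CPM (counts scaled to the group's total) at 7 days, against 1849 CPM in the dividing cells.

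Few cells lay near the collagen cut. At 7 days 8 dividing cells had collagen genes at 0.3 to 0.4% of UMIs and 14 barcodes with the mitosis genes lay just outside, at 0.2 to 0.3%. The corresponding numbers at 30 days were 9 and 9. More lay near the Sertoli cut. Dividing cells with the Sertoli genes at 0.05 to 0.1% numbered 54 at 7 days and 55 at 30 days, and 14 and 12 lay outside at 0.1 to 0.15%. In all, 159 and 68 otherwise fitting barcodes were left out for their Sertoli genes, and 11 and 11 for their Leydig genes.

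Dividing cells made up 8.01% (7.10 to 8.99%) of the 3260 collagen-rich cells at 7 days and 4.32% (3.81 to 4.86%) of the 5978 at 30 days. Detection of 2 mitosis genes depends on depth, so each barcode was also thinned to 2000 UMIs and the rule applied again. This left out 335 collagen-rich cells below that depth at 7 days and 2320 at 30 days, 12 and 22 of them dividing. Among the 2925 and 3658 deeper cells with all UMIs kept, the shares were 8.51% (7.53 to 9.58%) and 6.45% (5.68 to 7.30%). After thinning, the cuts for collagen, Sertoli and Leydig genes were applied again too, so the set of collagen-rich cells was not the same. The shares were then 5.83% (4.96 to 6.80%), or 152 of 2606 cells, and 5.24% (4.51 to 6.04%), or 178 of 3397. The ages lay closer together after both steps, and the thinned intervals overlapped.

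The peritubular genes compared were ITGBL1 (chromosome 11, 70042051 to 70246974, an integrin-like secreted protein), COL15A1 (chromosome 1, 240718128 to 240829188, a collagen of basement membrane zones), PTCH1 (chromosome 10, 26627165 to 26703225) and MFAP2 (chromosome 6, 75607515 to 75615680, a microfibril protein). The stromal genes were SFRP4 (chromosome 9, 108404314 to 108414335, a secreted Wnt antagonist), PI15 (chromosome 4, 61114490 to 61142869, a secreted peptidase inhibitor) and PTN (chromosome 18, 12219708 to 12309045, the growth factor pleiotrophin). Positions are whole genes in Sscrofa11.1.

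Most dividing cells held UMIs of both sets. At least 1 peritubular and 1 stromal UMI were found in 90.8% (86.6 to 94.02%) of the dividing cells at 7 days and in 90.3% (86.0 to 93.6%) at 30 days, against 81.4% and 76.1% of the non-dividing cells. Thinned to 2000 UMIs, the shares were 74.3% (66.6 to 81.1%) of dividing and 69.7% (67.7 to 71.6%) of non-dividing cells at 7 days, and 82.6% (76.2 to 87.8%) and 76.9% (75.4 to 78.4%) at 30 days. The dividing cells were higher in both libraries, with overlapping intervals. PTN and COL15A1 carried most of this overlap, at 95.8% and 81.2% of dividing cells at 7 days, against 11.6% and 7.13% of Sertoli-rule cells. Droplets called as holding more than 1 cell were more frequent among dividing cells, as given below. The shares with both sets were not recomputed without them, and their part was not tested.

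Cells were sorted by which set prevailed. A cell was peritubular-leaning with at least 2 peritubular UMIs and more of them than stromal ones, stromal-leaning in the reverse case, and otherwise unresolved. At 7 days 105 dividing cells leaned peritubular, 138 stromal and 18 were unresolved, and at 30 days the numbers were 125, 123 and 10. The leaning is a cut through a continuous range, and 53 dividing cells at 7 days and 31 at 30 days lay within 1 UMI of it.

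**Figure D1:**
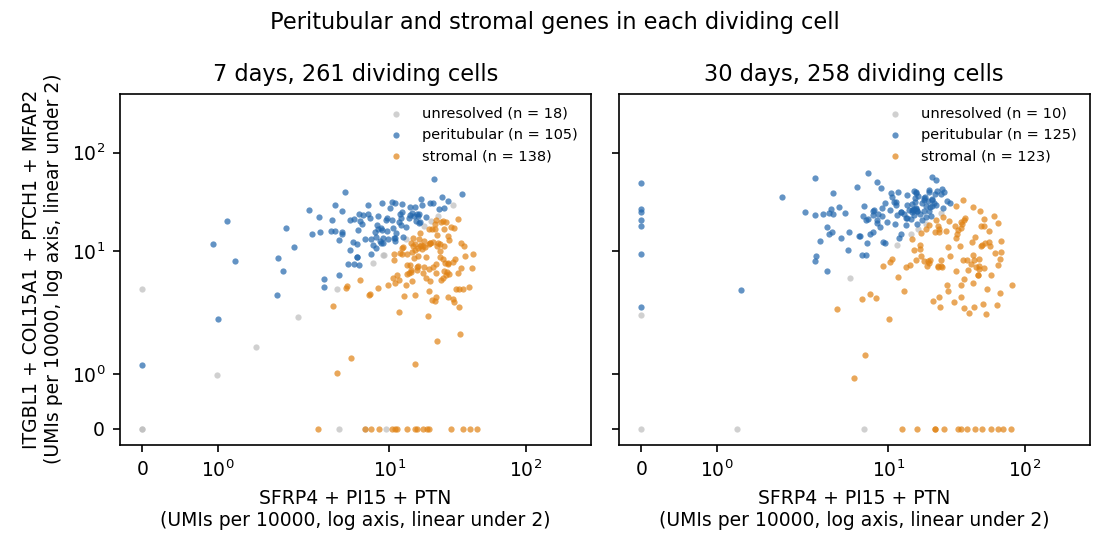
Summed UMIs of the 4 peritubular genes (vertical) against the 3 stromal genes (horizontal), per 10000 UMIs of the cell, with 1 point per dividing cell, both axes logarithmic and linear under 2. The 261 cells at 7 days and the 258 cells at 30 days each form a continuous cloud, with most cells above 0 on both axes.

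Among the dividing cells at 30 days the peritubular share of the UMIs of both sets ran from 0.091 at the 10th percentile to 0.80 at the 90th, with a median of 0.50. The 7-day values were 0.10, 0.77 and 0.455. Non-dividing cells at 30 days ran from 0 to 1, both as found and after thinning, whereas thinned dividing cells ran from 0.058 to 0.83. At 7 days the thinned range was 0 to 0.80 in dividing and 0 to 0.88 in non-dividing cells.

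Summed over the dividing cells, the peritubular genes had 1933 counts and the stromal genes 2124 at 7 days, a log2 ratio of −0.14 (−0.23 to −0.05). At 30 days they had 1854 and 2177 counts, a log2 ratio of −0.23 (−0.32 to −0.14). The non-dividing cells stood at −0.35 (−0.39 to −0.32) and −0.24 (−0.27 to −0.22). At 7 days the peritubular sum was 1174 CPM in dividing and 1208 CPM in non-dividing cells and the stromal sum 1290 and 1542 CPM, so the ratios differed by the stromal sum more than by the peritubular one. At 30 days the ratios overlapped. Without the barcodes that held markers of other cell types, described below, the 7-day values were −0.27 (−0.37 to −0.18) in dividing and −0.38 (−0.42 to −0.34) in non-dividing cells, whose intervals overlapped. The 30-day values were then −0.27 and −0.26.

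Single genes behaved differently from the sums. SFRP4 stood at 146 CPM (128 to 166) in dividing and 365 CPM (352 to 377) in non-dividing cells at 7 days. At 30 days it stood at 112 CPM (93.1 to 134) and 286 CPM (276 to 295). PI15 stood at 109 CPM (93.95 to 127) and 239 CPM (229 to 249) at 7 days, and at 156 CPM (133 to 181) and 354 CPM (344 to 365) at 30 days. In both libraries these 2 stromal genes were past 2-fold lower in dividing cells, where 3.6% of all genes compared were lower at 7 days and 6.43% at 30 days. The log2 ratios were −1.32 (−1.51 to −1.13) and −1.35 (−1.62 to −1.09) for SFRP4, and −1.13 (−1.35 to −0.91) and −1.19 (−1.41 to −0.96) for PI15. PI15 was less than 2-fold lower at 7 days without barcodes that held other types' markers (127 against 246 CPM) and with doublets removed (124 against 242 CPM), and at 30 days when thinned to 2000 UMIs (179.8 against 331 CPM).

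PTN, the third stromal gene, did not share this. It stood at 1035 CPM in dividing and 939 CPM in non-dividing cells at 7 days, and at 1715 and 1941 CPM at 30 days. Without barcodes that held other types' markers it was 1256 and 975 CPM at 7 days, and 2013 and 2005 CPM at 30 days. Since PTN gave 1703 of the 2124 stromal counts of the dividing cells at 7 days, the sums above follow PTN more than SFRP4 or PI15. Of the peritubular genes, COL15A1 stood at 791 CPM in dividing and 780 CPM in non-dividing cells at 7 days, and ITGBL1 at 103 and 95.5 CPM. PTCH1 was level at 190 and 189 CPM, while MFAP2 was lower in dividing cells, at 91.1 (77.1 to 107) against 143 CPM (135 to 151). At 30 days all 4 were lower in dividing cells by less than 2-fold, with log2 ratios between −0.44 and −0.28. Thinned to 2000 UMIs, MFAP2 was not lower, at 416 CPM (351 to 488) against 404 CPM (388 to 420). With doublets removed, the 30-day intervals of ITGBL1, PTCH1 and MFAP2 overlapped between dividing and non-dividing cells. They stood at 211 against 232, 401 against 441 and 367 against 404 CPM. COL15A1 stayed lower in that setting, at 965 (899 to 1034) against 1171 CPM (1151 to 1191).

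**Figure D2:**
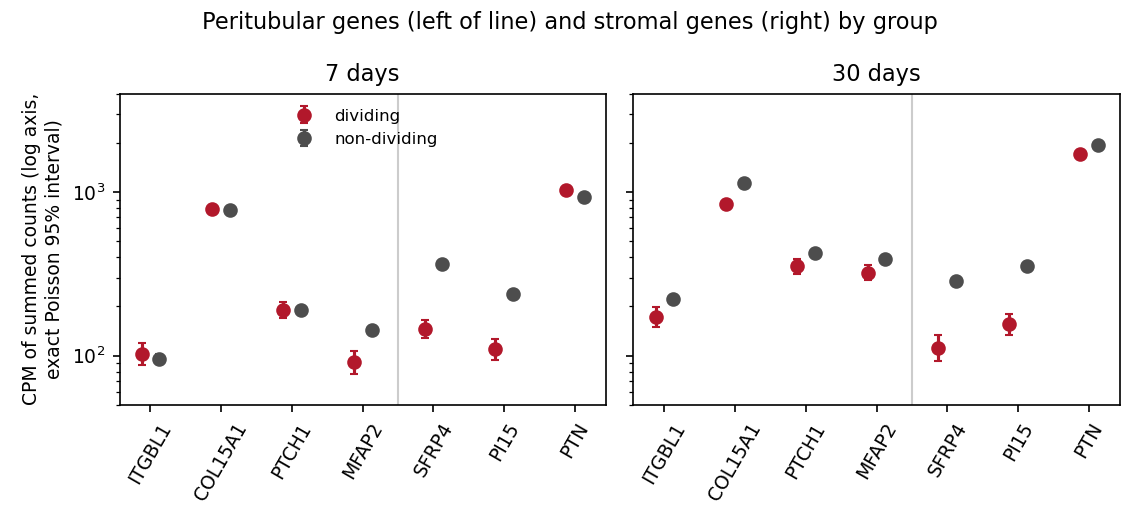
CPM of the summed counts of dividing and non-dividing collagen-rich cells for each of the 7 genes, on a log axis, with exact Poisson 95% intervals, by library. SFRP4 and PI15 stand apart between the groups at both ages (146 against 365 CPM and 109 against 239 CPM at 7 days), and the other 5 genes differ by less than 2-fold.

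The share of dividing cells was compared between the leanings. As found, it was 9.92% (8.18 to 11.9%) of peritubular-leaning and 7.57% (6.39 to 8.88%) of stromal-leaning cells at 7 days, where the former were deeper, at a median of 3964 against 3234 UMIs. Thinned to 2000 UMIs it was 6.66% (5.04 to 8.60%) and 5.30% (4.15 to 6.65%). At 30 days the shares were 4.37% in either leaning as found, and 4.92% (3.95 to 6.05%) and 5.14% (4.06 to 6.40%) after thinning. The intervals of the leanings overlapped in each case, and the difference itself was not tested.

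**Figure D3:**
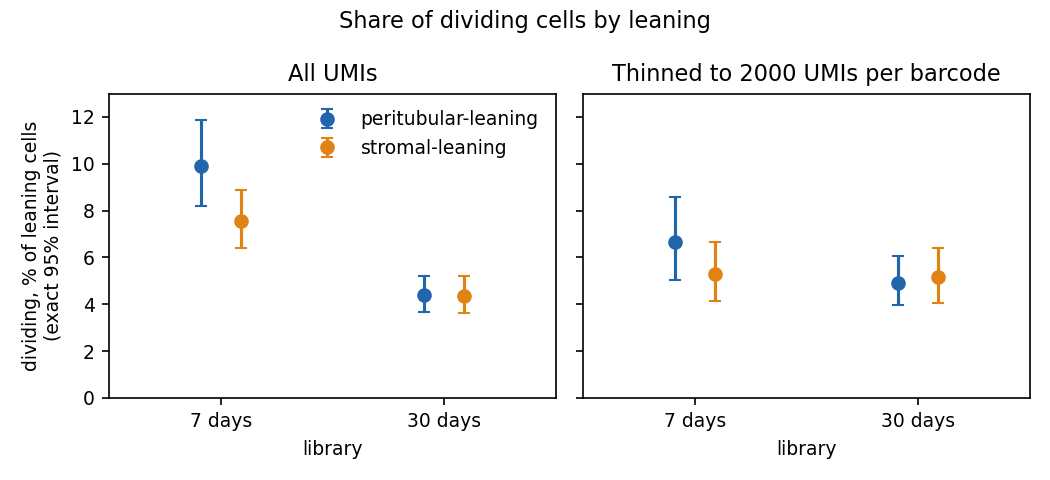
Dividing cells as a percentage of the peritubular-leaning and of the stromal-leaning collagen-rich cells, with exact binomial 95% intervals, with all UMIs and thinned to 2000 UMIs per barcode. The intervals of the leanings overlap in each library, and the thinned shares lie between 4.92% and 6.66%.

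Markers of other cell types were present in some of the dividing cells. At least 3 UMIs of endothelial, macrophage, lymphoid (without CD79A), germ, erythroid or mast cell markers were found in 32 of 261 dividing cells (12.3%, 8.54 to 16.9%) at 7 days and in 39 of 258 (15.1%, 11.0 to 20.1%) at 30 days. The same held for 7.80% of non-dividing cells at 7 days and 5.21% at 30 days. At 7 days these were 20 of the 105 peritubular-leaning and 11 of the 138 stromal-leaning dividing cells, and at 30 days 16 of 125 and 20 of 123.

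Summed endothelial markers, with 9 of 9 genes counted, were 241 CPM in dividing against 76.7 CPM in non-dividing cells at 7 days, and 177 against 156 CPM at 30 days. Macrophage markers, also 9 of 9, were 646 against 643 CPM and 400 against 408 CPM. Germ cell markers were 91.1 against 22.0 CPM at 7 days and 165 against 33.1 CPM at 30 days, with NANOS2 at 0 in all of them. CD79A alone gave 346 CPM in dividing and 360 CPM in non-dividing cells at 7 days, while CD79B and MS4A1, which B cells also carry, were at 0 in the non-dividing ones. HBB, a haemoglobin chain, reached 972 CPM at 7 days, although only 2 dividing cells had 3 or more UMIs of the erythroid markers. Scrublet, a caller of doublets (droplets with more than 1 cell), marked 20 dividing cells (7.66%) at 7 days and 33 (12.8%) at 30 days, against 1.85% and 5.04% of non-dividing cells. Doublets were kept, and gene differences are given below with and without the cells that held such markers where the value moved.

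Dividing cells at 30 days were set against those at 7 days. Among 6987 genes with at least 50 counts over both groups, 137 (1.96%) were past 2-fold higher at 30 days and 169 (2.42%) lower. Scaling with TMM factors, which shifted all log2 ratios by −0.11, gave 84 higher and 213 lower. In non-dividing cells 649 of 12173 genes (5.33%) were higher and 387 (3.18%) lower, or 8.51% either way, against 4.38% in dividing cells.

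Of the 10 largest differences toward 30 days, COL4A4 was first. This type IV collagen chain (chromosome 15, 128472228 to 128612302) stood at 8.50 CPM in dividing cells at 7 days and 202 CPM at 30 days, a log2 ratio of 4.57 (3.79 to 5.47). CYP26B1, which breaks down retinoic acid, stood at 13.4 and 121 CPM, a log2 ratio of 3.18 (2.52 to 3.90). DPEP1, a membrane dipeptidase, had 3 counts at 7 days and 58 at 30 days, or 4.86 (3.24 to 7.18). All 3 were also higher in non-dividing cells, at 5.12, 4.38 and 4.40.

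The complement gene C4A stood at 313 CPM at 7 days and 1201 CPM at 30 days, IGF1, a growth factor, at 26.7 and 107 CPM, and APOD, a lipid carrier, at 96.6 and 327 CPM. HOMER2, a scaffold protein, had a log2 ratio of 1.60 (1.27 to 1.93) in dividing and 2.38 (2.20 to 2.57) in non-dividing cells. For MT1A, a metallothionein, the ratios were 2.13 (1.42 to 2.88) and 3.61 (3.29 to 3.94), and 3.53 (2.46 to 4.81) in dividing cells without other cell types' markers. Reads of MT1A may be split with other metallothionein genes. RASD1, a small GTPase, had 1.78 (1.42 to 2.15). Without those barcodes HOMER2 was 2.63 (2.03 to 3.29). CRISPLD2, a secreted protein, had 1.97 (1.41 to 2.55) in dividing and 0.97 (0.83 to 1.12) in non-dividing cells.

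Toward 7 days the differences included genes induced by interferon. IFIT1 stood at 103 CPM in dividing cells at 7 days and 15.5 CPM at 30 days, a log2 ratio of −2.74 (−3.55 to −2.02). ISG15 stood at 199.9 and 43.7 CPM, and GBP1 at 125 and 27.3 CPM. In non-dividing cells their ratios were −1.74, −1.83 and −2.28. CCL2, a chemokine that draws monocytes, stood at 462 and 127 CPM, and GPX1, a peroxidase, at 212 and 48.3 CPM.

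IGFBP5, which binds insulin-like growth factors, had a log2 ratio of −2.09 (−2.53 to −1.67), and KLHL13, an adaptor of a ubiquitin ligase, −2.60 (−3.51 to −1.80). APLNR, the apelin receptor, had −2.97 (−4.14 to −1.99). CAVIN2, a caveola protein, stood at 65.0 and 11.8 CPM in dividing cells, a log2 ratio of −2.46 (−3.41 to −1.62), but at 0.22 (−0.08 to 0.53) in non-dividing cells. Without the cells that held other types' markers it was −2.09 (−4.48 to −0.34), and the part of the endothelial markers in it was not tested beyond this. H2AC12, a histone with near copies that may share reads, had −1.93 (−2.38 to −1.50). Without those cells all 20 ratios kept their sign, and ISG15 was −1.71 (−2.28 to −1.17).

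**Figure D4:**
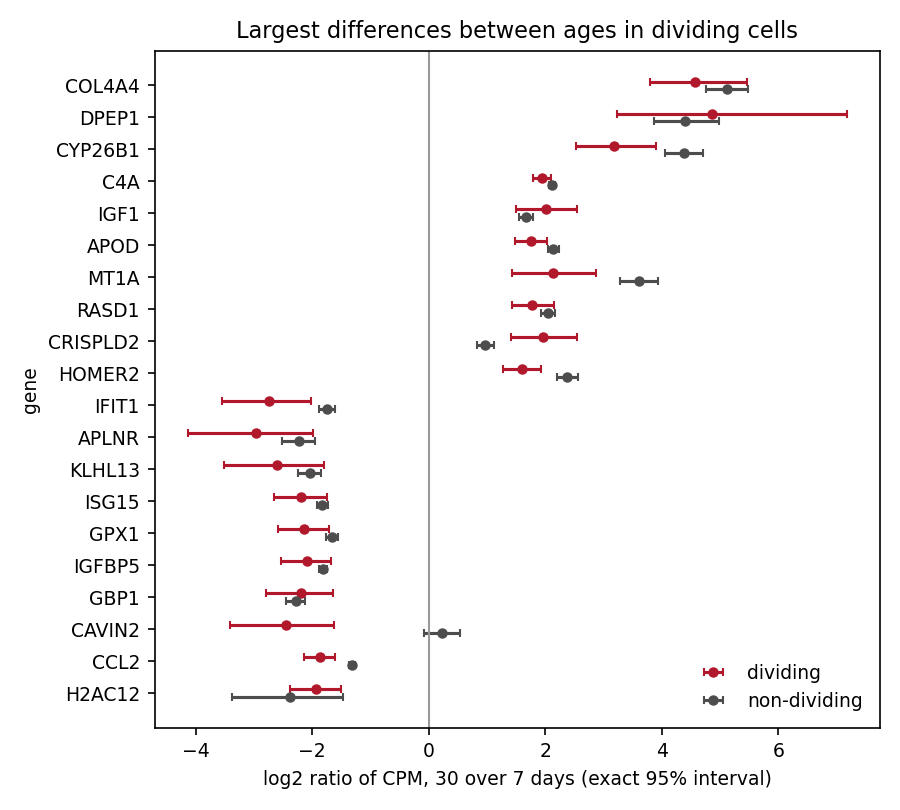
Log2 ratio of CPM, 30 over 7 days, with exact 95% intervals, for the 10 largest differences in each direction in dividing cells, beside the same ratio in non-dividing cells. Of the 20 genes, 19 lie on the same side in both groups with intervals clear of 0, and CAVIN2 is at −2.46 in dividing and 0.22 in non-dividing cells.

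Of the insulin-like growth factor system, 1 of 7 members compared was higher at 30 days (IGF1) and 2 were lower (IGFBP5 and IGF2R, the receptor that clears IGF2), where 1.96% of all genes were higher and 2.42% lower. Of matrix proteoglycans and glycoproteins, 4 of 20 were lower (POSTN, PRELP, MGP and FMOD) and 0 higher, with a median log2 ratio of −0.38 beside 0.05 over all genes. Of 14 collagens, 0 were past 2-fold either way, with log2 ratios from −0.96 to 0.61. COL3A1 stood at 4086 and 2178 CPM, a log2 ratio of −0.91. The TMM shift of −0.11 puts COL3A1 and the lowest collagen past 2-fold lower. The elastic fibre gene MFAP5 had 3.14 (2.11 to 4.35), the 1 member of 11 that was higher, beside 1.96% of all genes. Of 8 hedgehog pathway genes, 0 were past 2-fold, and PTCH1 stood at 190 CPM at 7 days and 351 CPM at 30 days.

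Few cell cycle genes were past 2-fold between the ages. Of 32 genes of mitotic entry and the spindle, 0 were past 2-fold, with a median of −0.01, and 1 of 22 S phase genes, DTL, was higher at 1.12 (0.60 to 1.66). Contraction genes were past 2-fold higher in 2 of 14 members, MYH11 (smooth muscle myosin, 46.2 and 113 CPM) and ACTG2 (an actin, 20.0 and 41.9 CPM), beside 1.96% of all genes. With TMM factors 1 of the 14 was higher.

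Dividing cells were then set beside non-dividing ones within each library. Since the mitosis genes chose the cells, these values describe the choice and support nothing. At 7 days 842 of 10576 genes (7.96%) were past 2-fold higher in dividing cells and 381 lower, and at 30 days 1028 of 11343 (9.06%) were higher and 729 lower. TMM factors shifted the log2 ratios by −0.21 and −0.27 and gave 640 higher and 693 lower at 7 days, and 726 and 1283 at 30 days. Without barcodes that held other types' markers the numbers were 676 and 548 at 7 days, and 809 and 998 at 30 days. The split between higher and lower thus moved with the scaling and with those barcodes, while the genes named next kept their side.

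Cell cycle genes led. All 32 genes compared of mitotic entry and the spindle were higher in both libraries, with medians of 5.70 and 5.55. CCNB1, cyclin B, stood at 176 CPM in dividing and 2.29 CPM in non-dividing cells at 7 days, and at 164 and 2.12 CPM at 30 days. S phase genes were higher in 21 of 21 and 21 of 22 members. PCNA, the replication clamp, stood at 312 against 42.8 CPM and 408 against 36.8 CPM, and TK1, which makes thymidine phosphate, at 276 against 9.29 and 331 against 4.16 CPM.

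Outside those lists the largest differences were also genes of spindle and cytokinesis. ASPM, a spindle pole protein, stood at 533 CPM in dividing and 3.32 CPM in non-dividing cells at 7 days, and at 433 and 2.93 CPM at 30 days. The kinesin motor KIF20A stood at 160 against 2.18 CPM at 7 days and at 152 against 1.55 CPM at 30 days. KIF14, another kinesin, had log2 ratios of 7.96 (6.07 to 11.03), against 2 counts, and 6.48 (5.42 to 7.75). The kinesins KIF15 and KIF4A stood at 242 and 163 CPM in dividing cells at 7 days and under 4 CPM in non-dividing ones. CIT, a kinase of cytokinesis, had 7.20 (5.95 to 8.85) and 6.24 (5.39 to 7.21), and SGO2, which guards cohesin at centromeres, 5.77 and 5.64. SHCBP1, PIMREG and PRR11 had 6.83, 6.73 and 6.11 at 7 days.

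By counts per cell, 50 of 261 dividing cells at 7 days (19.2%, 14.6 to 24.5%) held more S phase than mitosis UMIs, and 26 of 258 at 30 days (10.1%, 6.69 to 14.4%). The rule chose the cells by mitosis genes, and the lists differ in size, with 25 S phase and 34 mitosis features. These shares therefore do not give the phases of the cells. The median dividing cell had 54 UMIs of the mitosis list at 7 days and 41 at 30 days, and 11 and 10 of the S phase list. At 7 days the mitosis list stood at 8896 CPM (8688 to 9108) in peritubular-leaning and 13289 CPM (13036 to 13545) in stromal-leaning dividing cells. At 30 days it stood at 10884 and 11359 CPM. The depth of the cells, 6847 against 5568 UMIs at 7 days, moved with the leaning, and its part in this was not tested.

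Regulators of the G1 phase did not move together. CDKN2C, a CDK inhibitor, stood at 172 CPM in dividing and 7.91 CPM in non-dividing cells at 7 days, and at 268 and 10.1 CPM at 30 days. E2F1, a transcription factor of S phase entry, and RBL1, a retinoblastoma relative, were also past 2-fold higher, so that 3 of 14 members were higher in either library. Over all genes 7.96% were higher at 7 days and 9.06% at 30 days. CCND2, a D cyclin, was lower by less than 2-fold, at 121 against 208 CPM and 150 against 279 CPM. CCND1 stood at 41.3 against 24.1 CPM at 7 days but at 29.1 against 61.0 CPM at 30 days, and CDKN1C was lower at 30 days, at −1.14 (−2.16 to −0.28).

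Matrix genes lay on the lower side in dividing cells. OGN, a small leucine-rich proteoglycan, stood at 201 CPM (691 CPM in non-dividing cells) at 7 days and at 110 CPM (420 CPM) at 30 days, log2 ratios of −1.78 (−1.94 to −1.62) and −1.93 (−2.20 to −1.67). Its relatives OMD and ECM2 had −1.83 and −1.49 at 7 days and −1.89 and −1.90 at 30 days. MFAP4, of elastic fibres, had −1.58 and −1.61, and IGFBP5 −1.45 and −1.72.

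RARRES2, which encodes the secreted protein chemerin, stood at 525 against 1183 CPM at 7 days and 373 against 967 CPM at 30 days. ANGPTL2, CDC42EP5, GALP and LGALS3, which encode a secreted angiopoietin relative, an effector of the GTPase CDC42, a galanin-like peptide and a galectin, had log2 ratios between −1.60 and −1.34 at 7 days and between −2.07 and −1.40 at 30 days. Collagens as a list had medians of −0.40 and −0.56 beside 0.05 over all genes in either library. Of 15 collagens 0 were past 2-fold lower at 7 days and 1 at 30 days (COL12A1). Over all genes 3.6% were lower at 7 days and 6.43% at 30 days, and the collagen count at 30 days is about that share. The medians of matrix proteoglycans were −0.42 and −0.63, with 3 and 4 of 21 lower, beside those same shares.

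Contraction genes were counted in each library. At 7 days 0 of 16 were past 2-fold, with a median of −0.06, and with TMM factors 2 were lower. At 30 days 5 of 16 were lower (TAGLN, LMOD1, MYH11, MYLK and CALD1), beside 6.43% of all genes, with a median of −0.50. Without other types' markers 4 were lower, LMOD1 being the one lost. TAGLN, an actin-binding protein, stood at 232 against 451 CPM at 7 days and at 137 against 642 CPM at 30 days. MYH11 stood at 46.2 against 35.1 CPM and at 113 against 279 CPM. ACTA2, smooth muscle actin, stood at 784 against 699 CPM and at 1010 against 1259 CPM. Whether the contrast differs between the ages was not tested, with 1 library each.

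Genes of interstitial progenitors were past 2-fold lower in 0 of 15 members at 7 days and in 3 at 30 days (TCF21, LHX9 and WNT5A), where 3.6% and 6.43% of all genes were lower. Ribosomal protein genes made up a smaller share of counts in dividing cells, 13.7% against 16.0% at 7 days and 12.8% against 15.2% at 30 days. Growth factor receptors were lower in 0 of 14 at 7 days and in 1 of 15 at 30 days, PDGFRB, the platelet-derived growth factor receptor of mural and stromal cells, at 38.3 against 108 CPM. That is about the share of all genes, 6.43%.

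How the dividing cells differed among themselves was seen by setting the peritubular-leaning against the stromal-leaning ones, with the 7 genes of the split left out. At 7 days 101 of 4884 genes (2.07%) were past 2-fold higher in the peritubular-leaning cells and 117 (2.4%) lower, or 4.46% either way. Without the barcodes that held other types' markers these numbers were 18 and 62 of 3751 genes, and with doublets removed 19 and 84 of 4024, so the number higher at 7 days was far smaller without them. At 30 days 62 of 3648 genes (1.7%) were higher and 98 (2.69%) lower, which is 4.39% either way, or 48 and 89 of 2601 without those barcodes. TMM factors, with a shift of 0.13, gave 94 higher and 71 lower at 30 days.

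One gene of the split itself did not follow its set. MFAP2 stood at 70.7 CPM in peritubular-leaning and 118 CPM in stromal-leaning dividing cells at 7 days, although it counted toward the former, and at 448 and 203 CPM at 30 days. The genes named next were required to differ in the same direction in both libraries. IGFBP6 (chromosome 5, 18352884 to 18357225), which binds insulin-like growth factors, stood at 62.9 CPM in peritubular-leaning and 382 CPM in stromal-leaning dividing cells at 7 days, and at 75.2 and 614 CPM at 30 days. Its log2 ratios were −2.60 (−3.07 to −2.16) and −3.03 (−3.54 to −2.55).

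SFRP1 (chromosome 17, 10436414 to 10489773), a Wnt antagonist related to SFRP4, stood at 75.8 and 373 CPM at 7 days and at 56.4 and 398 CPM at 30 days. COL14A1, a collagen that binds fibrils, had −2.34 (−3.07 to −1.67) and −3.23 (−4.14 to −2.43). AKAP12, a scaffold of protein kinase A, had −1.61 and −2.25, and PENK, the precursor of enkephalins, −1.35 (−1.87 to −0.85) and −2.23 (−2.68 to −1.81). LHX9, a transcription factor of the early gonad, had −1.23 (−1.60 to −0.87) and −1.62 (−2.17 to −1.10).

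HSPB6, a small heat shock protein, had −1.26 and −1.59, RNASE4, a ribonuclease, −1.35 and −1.54, and CD302, a lectin receptor, −1.63 and −1.60. SLA-DQB1, of the antigen-presenting MHC class II, had −1.20 and −1.30, but −0.42 (−1.78 to 0.84) and −0.52 (−1.57 to 0.50) without barcodes that held other types' markers. C1QB, a complement gene of macrophages, stood at 59.1 CPM in peritubular-leaning and 418 CPM in stromal-leaning dividing cells at 7 days, and at 152 and 142 CPM at 30 days. The 9 macrophage markers together were lower in peritubular-leaning cells at both ages. They summed to 240 (207 to 277) against 1096 CPM (1024 to 1171) at 7 days. At 30 days the sums were 342 (294 to 396) and 462 CPM (406 to 524). Intervals of the first 9 named genes stayed clear of 0 without the barcodes that held other types' markers, and that of SLA-DQB1 did not.

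Other genes were higher in the peritubular-leaning cells. FATE1, a gene known from fetal and adult testis, stood at 668 against 312 CPM at 7 days and 602 against 233 CPM at 30 days, log2 ratios of 1.10 (0.88 to 1.32) and 1.37 (1.06 to 1.68). SLC24A2, a sodium, calcium and potassium exchanger, had 1.80 (0.84 to 2.86) and 2.46 (1.42 to 3.67), and GFPT2, of hexosamine synthesis, 1.45 and 0.95. The basement membrane collagens COL4A1 and COL4A2 had 0.63 (0.48 to 0.78) and 0.53 (0.40 to 0.67) at 7 days, and 1.08 (0.86 to 1.29) and 1.22 (1.05 to 1.39) at 30 days. Endothelial cells also make these collagens. The 9 endothelial markers summed to 331 CPM (292 to 374) in peritubular-leaning and 173 CPM (145 to 205) in stromal-leaning dividing cells at 7 days. At 30 days the sums were 182 (148 to 223) and 171 CPM (137 to 210). Of 3 with enough counts to compare at 7 days, PECAM1 and CLDN5 were past 2-fold higher, beside 2.07% of all genes. At 30 days only EGFL7 could be compared, and it was past 2-fold higher, beside 1.7% of all genes. Without barcodes that held other types' markers COL4A1 and COL4A2 had 0.81 and 0.70 at 7 days, and 0.99 and 1.07 at 30 days.

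ALPL, an alkaline phosphatase, had 0.73 and 1.55, GALP 0.82 and 1.93, and RASSF2, a Ras-binding protein, 1.09 and 0.99. PRDM1, a transcriptional repressor, had 1.07 (0.44 to 1.73) and 1.37 (0.60 to 2.19). MT1X, a metallothionein whose reads may be split with its relatives, had 2.28 (1.51 to 3.12) and 2.07 (1.31 to 2.90). Without other types' markers the 7-day value of MT1X was 0.62 (−0.56 to 1.81) and the 30-day value 1.89 (0.96 to 2.93). Among the named ratios past 2-fold, the 7-day ones of PRDM1, PENK and SLA-DQB1 changed sign after thinning to 2000 UMIs. They moved to −0.36, 0.79 and 1.96, on few counts.

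Contraction genes were also set between the leanings. At 30 days 4 of 13 members were past 2-fold higher in peritubular-leaning dividing cells, beside 1.7% of all genes. The median of the 13 was 0.62, beside −0.06 over all genes. ACTA2 stood at 1433 against 498 CPM, DES, an intermediate filament of muscle, at 167 against 58.8 CPM, MYH11 at 169 against 36.0 CPM and TAGLN at 175 against 79.6 CPM. Without other types' markers 3 of 13 were higher, TAGLN being the one lost. At 7 days 0 of 13 were higher and 1 was lower, beside 2.07% and 2.4% of all genes. The lower gene was MYH11, at 14.1 against 79.6 CPM, and without those barcodes DES was also higher. The 7 markers of pericytes and vascular smooth muscle, MYH11 among them, summed to 127 against 274 CPM at 7 days and to 273 against 66.3 CPM at 30 days, and their part in this was not tested. ACTA2 stood at 791 against 799 CPM at 7 days, and DES at 108 against 64.4 CPM, with a log2 ratio of 0.74 (0.22 to 1.28). Whether the contrast between the leanings changed with age was not tested.

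Among collagens at 30 days, COL14A1 and COL3A1 were past 2-fold lower in peritubular-leaning cells and COL4A1, COL4A2 and COL6A2 higher, among 13 compared. Over all genes 2.69% were lower and 1.7% higher. Without other types' markers 6 of 12 were lower (COL1A2, COL3A1, COL5A1, COL5A2, COL6A3 and COL14A1) and COL4A2 higher. In that setting 89 of all 2601 genes were lower and 48 higher. At 7 days COL14A1 alone of 14 was past 2-fold, on the lower side, beside 2.4% of all genes. COL3A1 stood at 3331 against 4791 CPM at 7 days and at 1172 against 3275 CPM at 30 days. Of the elastic fibre genes 2 of 10 were lower at 7 days (MFAP4 and LOXL1) and 3 of 9 at 30 days (MFAP5, LOX and FBN1). The shares of all genes that were lower were 2.4% and 2.69%. MFAP5 stood at 1.88 against 98.6 CPM at 30 days, from 1 and 52 counts, a log2 ratio of −5.71 (−11.04 to −3.17).

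Among growth regulators, IGFBP7 stood at 6437 CPM in peritubular-leaning and 3016 CPM in stromal-leaning dividing cells at 30 days, and at 3489 and 3036 CPM at 7 days. Of hedgehog pathway genes other than PTCH1, 0 of 5 were past 2-fold at 7 days and 0 of 4 at 30 days. HHIP, a hedgehog inhibitor, stood at 182 against 332 CPM at 7 days and 256 against 324 CPM at 30 days. Of interstitial progenitor genes, LHX9 was lower at both ages, and LIFR, a cytokine receptor, at 30 days. Immediate early genes also respond to tissue dissociation. Of 12 compared, FOSB and JUNB were past 2-fold higher in peritubular-leaning cells at 30 days, beside 1.7% of all genes. Their log2 ratios were 1.10 (0.91 to 1.30) and 1.45 (0.69 to 2.26). At 7 days 0 of 12 were higher, beside 2.07% of all genes.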

How the data were processed

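The libraries, 1 per age, were read from deposited matrices of UMI counts per gene and barcode, not normalized. Per the submitters' processing notes, bcl2fastq, Cell Ranger and Scanpy 1.7.1 were used with build Sscrofa11.1, and the file headers give 5.0.1 as the version of Cell Ranger. Of 31908 features 16508 carry a symbol, and 825 more were named from a gene table. Of 298 genes in the lists 20 had no feature, among them MKI67 and CCNA2.

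Counts were summed over the cells of a group and given as CPM, with exact Poisson intervals. Ratios had exact conditional binomial intervals, and shares Clopper-Pearson intervals. Genes with at least 50 counts over both groups were compared. Named genes were the 10 with the largest bound nearest to no change in each direction, at 50 CPM or more in the higher group, in both libraries where both were used. The members and lists were chosen with earlier results of these data known. No cluster was built. The ratio and its interval were run on simulated counts with counting error alone. Variation between cells was not simulated, so that run says nothing about it. Python 3.11.15, SciPy 1.17.1, Scanpy 1.11.5 (Scrublet, as an alternative) and edgeR 4.0.16 (TMM factors, as an alternative) were used. Ribosomal protein, mitochondrial and haemoglobin genes were not named by the rule. Promoter, protein and genome sequences were not used here.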

Additional observations from a re-analysis of the deposited data

How the results depend on the processing

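No paired analysis was possible because each age is 1 library. The log2 ratios of peritubular to stromal counts in dividing cells kept their sign in every setting. Shares and gene counts have no sign and could only stay or move. Of the main values recomputed 84 stayed within their margin and 34 moved. The split of genes past 2-fold did turn in some settings. With TMM factors it went from 842 higher and 381 lower to 640 and 693 for dividing against non-dividing cells at 7 days. For the leanings at 30 days it went from 62 and 98 to 94 and 71. Requiring all 3 mitosis genes gave dividing shares of 4.14% at 7 days and 2.39% at 30 days, with 4.53% and 2.34% of peritubular-leaning and 4.22% and 2.52% of stromal-leaning cells. Thinning to 2000 UMIs gave 5.83% and 5.24%, and 6.66% and 5.30% of the leanings at 7 days. The stricter cell filter gave 5.93% at 30 days, with 6.11% and 5.70% of the leanings, and a collagen cut of 0.6% gave 3.79%. A leaning at 2 times as many UMIs gave 7.65% and 6.32% at 7 days. At 30 days it gave 3.07% of peritubular-leaning and 3.81% (3.10 to 4.64%) of stromal-leaning cells.

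The log2 ratio of peritubular to stromal counts at 7 days became −0.26 with doublets removed, −0.24 at the collagen cut of 0.6%, −0.25 with all 3 mitosis genes, −0.30 thinned and −0.27 without barcodes with other cell types' markers. That last setting, and the collagen sum without LUM, were chosen after seeing the data.

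Counts of genes past 2-fold grew with a minimum of 10 counts, to 1504 for the ages, 2723 and 3702 for dividing against non-dividing cells at 7 and 30 days, and 1448 and 1375 for the leanings. Thinning, which leaves fewer counts, gave 96 for the ages and 11 and 50 for the leanings. For the leanings at 7 days the count was 103 with doublets removed, 101 at the collagen cut of 0.6%, 113 with all 3 mitosis genes and 80 without other types' markers. Of 100 ratios of the named genes 96 kept their direction when thinned. Among those past 2-fold as found, PRDM1, PENK and SLA-DQB1 changed sign between the leanings at 7 days, to −0.36, 0.79 and 1.96. The remaining change was in a ratio under 2-fold. With the leaning at 2 times as many UMIs, SLA-DQB1 changed to 0.20. The cause was not tested.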

Other observations

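The same rule found 104 dividing collagen-rich cells at 60 days and 172 at 90 days, or 3.75% (3.07 to 4.52%) and 6.11% (5.25 to 7.05%) of the collagen-rich cells. Thinned to 2000 UMIs the shares were 1.99% (1.36 to 2.79%) and 4.18% (3.29 to 5.24%). At 90 days 130 of the 172 leaned stromal and 30 peritubular, and the log2 ratio of peritubular to stromal counts was −1.62 (−1.78 to −1.47), beside −1.50 in non-dividing cells. Of those 172 cells 48 (27.9%, 21.3 to 35.2%) held at least 3 UMIs of other cell types' markers, against 5.88% of non-dividing cells. The mitosis list stood at 3953 CPM in them, against 11066 CPM in the dividing cells at 30 days.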
